A study of Homo sapiens with 11 samples.

Results

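4 genes of the sodium-potassium pump were followed in human cardiomyocytes kept in culture: ATP1B1, ATP1B2 and ATP1B3, which encode the pump's beta subunits, and FXYD1, which encodes its regulator phospholemman. They were taken by gene symbol from the table of read counts, where all 4 were present among 19990 genes. RNA of ATP1B1 and ATP1B2 was lower on Day 113 than on either earlier day, with ATP1B2 at 0.484 times its Day 30 level and ATP1B1 at 0.786 times. No comparison of days passed the test for ATP1B3 or FXYD1.

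The cells were cardiomyocytes made by differentiation of an established line of induced pluripotent stem cells from a human, WTC11 (passage 63), by switching Wnt signalling on with CHIR99021 and then off with IWP2. After differentiation they were held in RPMI1640 with B27 and insulin until collection on Day 30 (4 wells), Day 60 (3 wells) or Day 113 (4 wells), counted from the addition of CHIR99021. All 11 wells came from a single differentiation of a single line, so every p-value measures only the spread between wells, and day and collection cannot be told apart. Poly(A) RNA was sequenced as paired 150-base reads, and the counts summed to between 24.1 and 34.5 M per well (M, units of 1000000). Levels are given as CPM, counts per 1000000 after scaling between wells, and a change between days was called when its adjusted p in edgeR's quasi-likelihood test was under 0.05.

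The sodium-potassium pump is a P-type ATPase of the plasma membrane that uses ATP to move sodium out of the cell and potassium in. Its alpha subunit carries the catalytic site and the ion path, its beta subunit is a glycoprotein that the alpha subunit needs for folding and delivery to the surface, and a small FXYD protein alters its affinity for ions. In heart muscle the sodium gradient it builds drives the sodium-calcium exchanger, and cardiac glycosides act by blocking it. ATP1B1 is the widespread beta subunit of the heart, ATP1B2 was described in glia as an adhesion molecule, and ATP1B3 is found in many tissues. Phospholemman, the product of FXYD1, restrains the pump until protein kinase A or C phosphorylates it.

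The genes lie on 4 chromosomes, all on the plus strand, in the GRCh38 coordinates of RefSeq: ATP1B1 at chr1:169106690-169132719, ATP1B2 at chr17:7646627-7657770, ATP1B3 at chr3:141876643-141926549 and FXYD1 at chr19:35137188-35143109. The 250 bases before the annotated start of each beta gene (RefSeq, GRCh38.p14, plus strand, 5′ to 3′) are shown because the 3 genes encode alternative forms of the same subunit. They are chr1:169106440-169106689, chr17:7646377-7646626 and chr3:141876393-141876642. Capitals mark 3 core promoter motifs searched on both strands: the GC box GGGCGG, the CCAAT box CCAAT and the TATA box TATAAA.
ATP1B1: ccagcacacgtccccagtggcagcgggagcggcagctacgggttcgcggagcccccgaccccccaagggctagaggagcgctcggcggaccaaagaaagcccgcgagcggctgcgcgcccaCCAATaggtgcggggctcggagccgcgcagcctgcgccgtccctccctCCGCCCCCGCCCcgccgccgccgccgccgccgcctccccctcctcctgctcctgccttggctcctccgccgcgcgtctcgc
ATP1B2: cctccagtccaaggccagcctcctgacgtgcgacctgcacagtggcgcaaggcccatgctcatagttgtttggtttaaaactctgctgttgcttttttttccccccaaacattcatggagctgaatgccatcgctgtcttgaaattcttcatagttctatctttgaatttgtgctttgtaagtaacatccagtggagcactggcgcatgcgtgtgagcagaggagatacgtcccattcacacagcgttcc
ATP1B3: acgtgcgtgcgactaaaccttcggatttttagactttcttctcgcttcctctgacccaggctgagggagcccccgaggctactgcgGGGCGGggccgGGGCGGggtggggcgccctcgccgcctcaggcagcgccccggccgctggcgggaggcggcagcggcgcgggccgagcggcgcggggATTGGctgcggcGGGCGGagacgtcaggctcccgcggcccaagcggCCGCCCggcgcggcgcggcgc

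The ATP1B1 sequence held 2 GC boxes side by side and 1 CCAAT box, and the ATP1B3 sequence held 4 GC boxes and 1 CCAAT box. The ATP1B2 sequence, taken before the outermost annotated start of that gene, held none of the motifs searched. Over the windows of 300 bases that run on to 50 bases past the start, GC content was 77% for ATP1B1, 75% for ATP1B3 and 49% for ATP1B2, against a median of 58.7% over 35116 RefSeq promoter windows. A GC box was present in 45.0% of all those windows, a CCAAT box in 34.6% and a TATA box in 11.5%. The ATP1B2 window precedes the outermost annotated start, and GENCODE also lists a transcript of the gene that starts further downstream. Where the ATP1B2 transcript used here for length and reading frame starts was not examined. The window may therefore not be the promoter of that transcript, and its contrast with the other 2 genes may not hold there. GENCODE places the gene start of ATP1B1 993 bases and that of ATP1B3 519 bases before the RefSeq start used here, so both of those windows lie inside the GENCODE genes. These matches describe letters in a window and do not locate a bound factor.

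The coding sequence of FXYD1, assembled from GENCODE release 29, is shown because its family is named for a signature in it: capitals mark codons 29 to 32, which spell that signature, in a reading frame of 279 bases with the stop codon.
FXYD1: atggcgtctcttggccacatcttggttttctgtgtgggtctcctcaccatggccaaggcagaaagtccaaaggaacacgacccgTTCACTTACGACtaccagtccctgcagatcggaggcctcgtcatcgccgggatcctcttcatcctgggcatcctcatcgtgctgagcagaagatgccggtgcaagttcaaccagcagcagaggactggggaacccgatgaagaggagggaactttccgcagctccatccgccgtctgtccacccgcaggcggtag
The frames of ATP1B1, ATP1B2 and ATP1B3 held 912, 873 and 840 bases. The longest identical run between transcripts of any pair of beta genes was 17 bases (ATP1B2 and ATP1B3), far below the read length of 150 bases. The count of FXYD1 is less certain, because its annotated exons share 502 bases with AC020907.2 on the same strand and 467 bases with AC020907.5 on the opposite strand, and use of strand in counting is not given in the sources used here. ATP1B1 shares 192 bases with the opposite-strand gene NME7 at its 3′ end.

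The second Day 113 well stood apart from the others of its day in some abundant genes, low in some and high in others. TTN, the giant sarcomere gene, was at 2535 CPM there and at 5573 to 6744 CPM in the other 3 wells, SPTBN1, a spectrin gene of the partner list, at 544 against 698 to 929 CPM, and the troponin gene TNNT2 at 5816 against 3681 to 3985 CPM. These 3 genes were picked after their values were seen. Without that well, the log2 change from Day 30 to Day 113 was -0.40 for ATP1B1 and -1.00 for ATP1B2, both still called, -0.16 for ATP1B3 and -0.05 for FXYD1.

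Read on a scale that allows comparison between genes, CPM per kilobase of annotated exon, ATP1B1 had the highest level of the 4 on each day. ATP1B1 stood at 124 ± 10.8 CPM per kilobase (SD, n = 4) on Day 30, 142 ± 22.0 (n = 3) on Day 60 and 97.5 ± 7.28 (n = 4) on Day 113. FXYD1 came next at 58.9 ± 6.04, 61.0 ± 10.5 and 66.7 ± 20.3 CPM per kilobase on the same days. The ranges of ATP1B1 and FXYD1 were apart on Day 30 and Day 60 and overlapped on Day 113, when the highest FXYD1 well, at 96.2, exceeded the lowest ATP1B1 well, at 91.5. ATP1B2 held the third place on Day 30 with 27.1 ± 2.51 and on Day 60 with 21.6 ± 2.16, above ATP1B3 with 20.9 ± 1.31 and 16.4 ± 2.29. On Day 113 their order was the opposite, with ATP1B3 at 20.03 ± 2.98 and ATP1B2 at 13.1 ± 2.54. On none of the 3 days did the wells of ATP1B2 and ATP1B3 overlap on this scale, and the narrowest gap was on Day 113, between 16.7 for the highest ATP1B2 well and 17.3 for the lowest ATP1B3 well.

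ATP1B1, the main beta subunit, was measured at 371, 339, 299.8 and 332 CPM in the Day 30 wells, in order of replicate. It stood at 426, 316 and 411 CPM on Day 60 and at 251, 291, 265 and 247 CPM on Day 113. All 4 Day 113 wells lay below every well of both earlier days, while Day 60 and Day 30 overlapped because the second Day 60 well was low. From Day 60 to Day 113 ATP1B1 fell by 0.54 ± 0.11 on the log2 scale (± SE here and below), to 0.687 times its level, with an edgeR adjusted p of 0.0029. From Day 30 to Day 113 it fell by 0.35 ± 0.11 (edgeR adjusted p = 0.019). That call was lost without the first Day 30 well (edgeR adjusted p = 0.070) or without the fourth Day 113 well (edgeR adjusted p = 0.053). Between Day 30 and Day 60 the log2 change was 0.20 ± 0.11, with a 95% interval of -0.05 to 0.44 (edgeR adjusted p = 0.35).

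The 2 intervals differed for ATP1B1. Its log2 change from Day 60 to Day 113 was lower than that from Day 30 to Day 60 by 0.74 ± 0.20 (edgeR adjusted p = 0.031), a contrast in which 9.34% of all genes were called. The adjusted p of this difference was 0.059 without the third Day 30 well, 0.16 without the first Day 60 well and 0.13 without the third Day 60 well.

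ATP1B2, the adhesion-type beta subunit, was measured at 96.7, 80.2, 85.4 and 79.6 CPM on Day 30. It stood at 75.7, 62.6 and 66.0 CPM on Day 60 and at 34.3, 37.5, 52.6 and 40.8 CPM on Day 113. The 3 days did not overlap at any step, and each later day was lower. From Day 60 to Day 113 ATP1B2 fell by 0.72 ± 0.13 on the log2 scale, to 0.607 times its level (edgeR adjusted p = 0.0012). From Day 30 to Day 113 it fell by 1.05 ± 0.13, with a 95% interval of -1.31 to -0.78 (edgeR adjusted p = 1.1e-05). Between Day 30 and Day 60 its log2 change was -0.33 ± 0.13, which missed the threshold with all 11 wells in the fit (edgeR adjusted p = 0.15) and passed it with only the wells of those 2 days (-0.31, edgeR adjusted p = 0.047). In bulk RNA, fewer cells of a type and less RNA per cell cannot be told apart, here and for each gene below. Among all genes, wells lay lower without overlap in 14.1% from Day 30 to Day 60, in 14.4% from Day 60 to Day 113 and in 18.0% from Day 30 to Day 113.

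ATP1B3, the widely expressed beta subunit, was measured at 35.1, 37.0, 40.5 and 39.1 CPM on Day 30. It stood at 30.0, 33.7 and 25.4 CPM on Day 60 and at 33.1, 43.6, 37.0 and 31.4 CPM on Day 113. The Day 60 wells lay below all Day 30 wells, and the Day 113 wells overlapped both. The log2 changes were -0.35 ± 0.13 from Day 30 to Day 60 (edgeR adjusted p = 0.11), 0.29 ± 0.13 from Day 60 to Day 113 (edgeR adjusted p = 0.13) and -0.06 ± 0.12 from Day 30 to Day 113 (edgeR adjusted p = 0.73). The 95% interval of the last was -0.32 to 0.19.

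FXYD1 was measured at 77.8, 76.0, 69.3 and 88.6 CPM on Day 30. It stood at 67.2, 95.1 and 80.1 CPM on Day 60 and at 70.5, 127, 84.4 and 70.7 CPM on Day 113. The days overlapped in every pair, and the highest well was the second of Day 113, the well that stood apart in TTN. The log2 changes were 0.05 ± 0.18, 0.13 ± 0.18 and 0.18 ± 0.17 for Day 60 against Day 30, Day 113 against Day 60 and Day 113 against Day 30, with edgeR adjusted p of 0.92, 0.67 and 0.45. The 95% interval for Day 113 against Day 30 was -0.17 to 0.53. Without the second Day 113 well, the changes to Day 113 became -0.10 from Day 60 and -0.05 from Day 30.

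**Figure D1:**
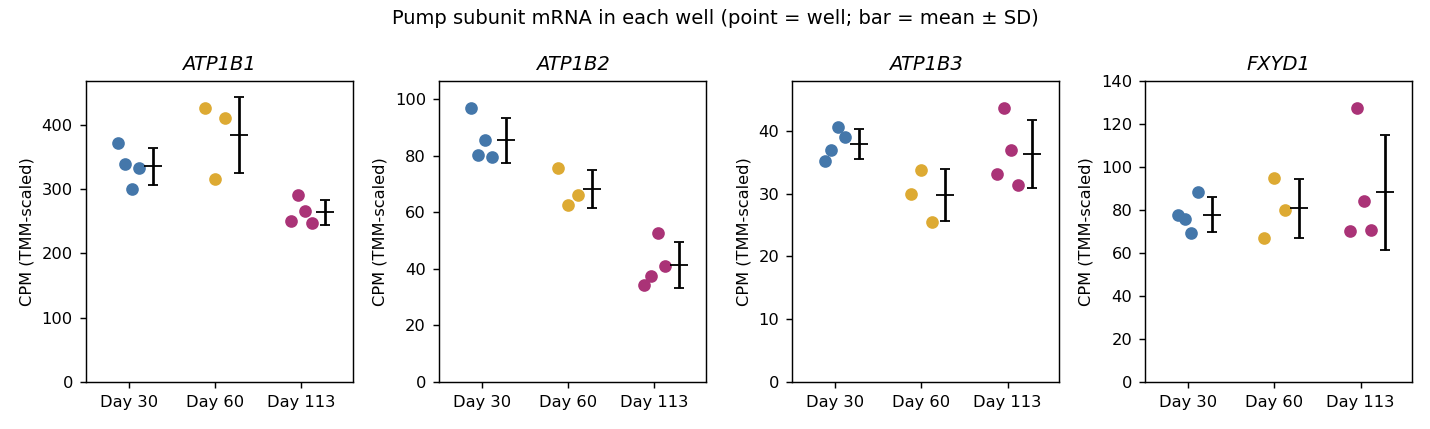
Level of each gene in CPM (vertical axis, linear, from 0) by day of culture, with 1 point per well and the mean ± SD as a bar. The ATP1B2 wells step down on each day without overlap, the Day 113 wells of ATP1B1 lie below all others, and the FXYD1 wells overlap on all days.

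Counted over the 4 genes, edgeR called 0 from Day 30 to Day 60, where 10.3% of all genes were called. At an unadjusted p under 0.05 there were 2 (ATP1B2 and ATP1B3, both lower), and DESeq2 and limma-voom also called 0. From Day 60 to Day 113, 2 of 4 (ATP1B1 and ATP1B2) were called, both lower, where 24.0% of all genes were called and 11.1% were called lower. From Day 30 to Day 113 the same 2 of 4 were called lower, where 34.5% of all genes were called and 17.2% were called lower. In a joint test over the 3 days, the edgeR adjusted p was 0.0041 for ATP1B1, 3.8e-05 for ATP1B2, 0.10 for ATP1B3 and 0.67 for FXYD1, with 37.1% of all genes called. The median log2 change of the 4 genes was -0.14, -0.21 and -0.21 in the 3 comparisons, beside -0.01, 0.0016 and -0.02 over all genes. With 4 genes, these counts are a description and no statement about the pump as a group.

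**Figure D2:**
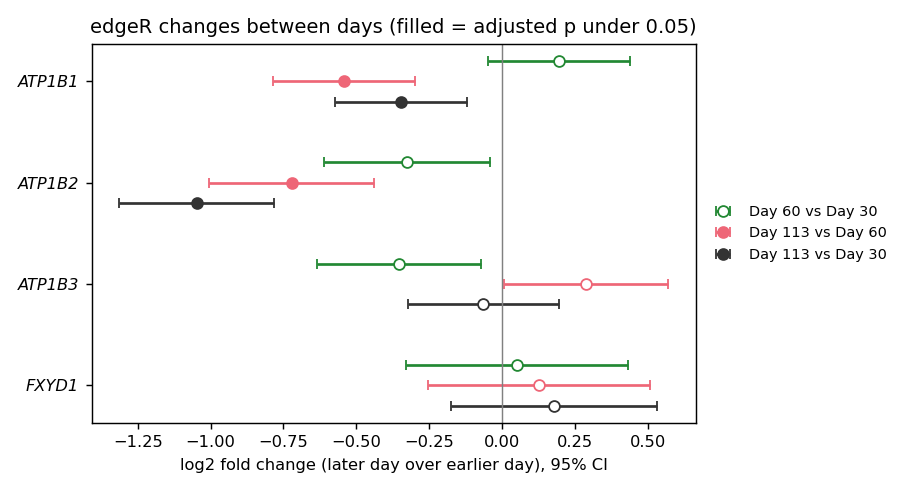
Log2 fold change of each gene between days (horizontal axis) with its 95% interval, for the 3 pairs of days. Filled points had an edgeR adjusted p under 0.05, which were the 2 changes to Day 113 of ATP1B1 and the 2 of ATP1B2.

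The ratio of 2 subunits within a well does not depend on scaling between wells. ATP1B2 counts were 2.04 to 2.75 times those of ATP1B3 on Day 30, 1.86 to 2.59 times on Day 60 and 0.861 to 1.42 times on Day 113. The Day 113 ratios lay below every ratio of the other days. The difference in mean log2 ratio was 0.03 from Day 30 to Day 60 (exact permutation p = 0.857), -1.02 from Day 60 to Day 113 (exact permutation p = 0.0286) and -0.99 from Day 30 to Day 113 (exact permutation p = 0.0286). The ratio of ATP1B2 to ATP1B1 was 0.237 to 0.285 on Day 30, 0.161 to 0.199 on Day 60 and 0.129 to 0.198 on Day 113. It was lower in every Day 60 and Day 113 well than in any Day 30 well, by 0.51 and 0.72 in mean log2 ratio (exact permutation p = 0.0286 each), and Day 113 overlapped Day 60.

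The ratio of ATP1B3 to ATP1B1 was 0.0948 to 0.135 on Day 30, 0.0620 to 0.107 on Day 60 and 0.127 to 0.150 on Day 113. Its mean log2 ratio was 0.82 higher on Day 113 than on Day 60 (exact permutation p = 0.0286). The ratio of FXYD1 to ATP1B1 was 0.210 to 0.267 on Day 30, 0.158 to 0.301 on Day 60 and 0.281 to 0.438 on Day 113. Every Day 113 ratio of this pair lay above every Day 30 ratio, while Day 60 overlapped both. The mean log2 ratio of FXYD1 to ATP1B1 was 0.49 higher on Day 113 than on Day 30 (exact permutation p = 0.0286, adjusted p = 0.0571). These two-sided exact tests cannot give a p below 0.0286 with these numbers of wells. Of the 12 ratio comparisons, 0 passed after Benjamini-Hochberg adjustment, and the smallest adjusted p was 0.0571. At an unadjusted p under 0.05 there were 6, and each of them stood at the smallest possible p of 0.0286. None of these 6 could have come out lower. The count of 0 after adjustment thus reflects the numbers of wells and tests, and does not show that a ratio stayed the same.

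**Figure D3:**
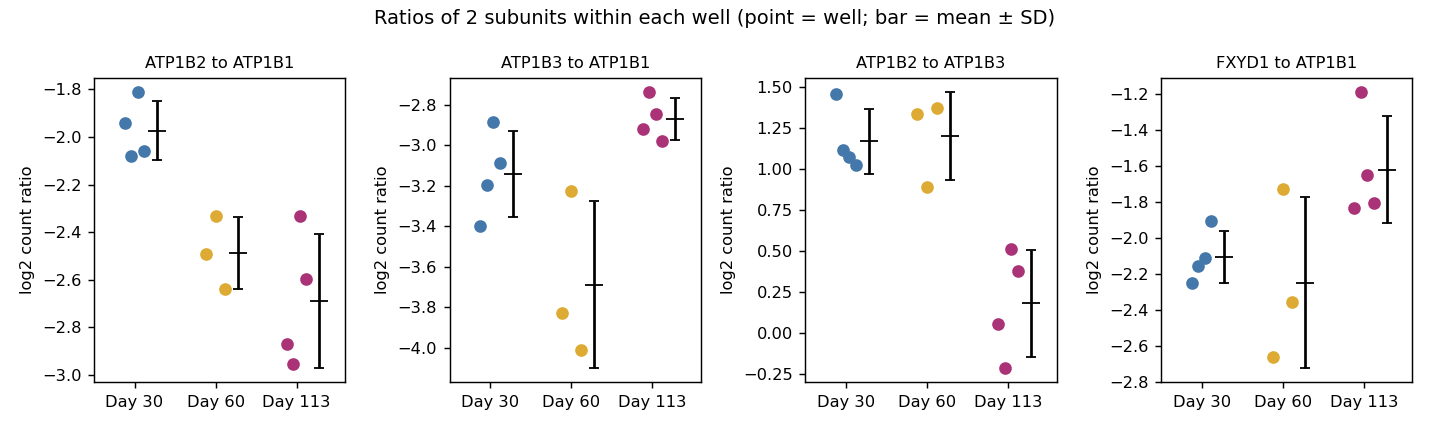
Log2 ratio of the counts of 2 subunits within each well (vertical axis) by day, 1 point per well, with the mean ± SD beside the points. The Day 113 wells of ATP1B2 to ATP1B3 lie below all others, between 0.861 and 1.42 on the linear scale.

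As a share of beta subunit RNA, on counts per kilobase summed over the 3 genes, ATP1B1 made up 72.0 ± 1.95% on Day 30, 78.7 ± 3.13% on Day 60 and 74.7 ± 1.50% on Day 113. ATP1B2 went from 15.8 ± 1.04% through 12.0 ± 0.803% to 10.05 ± 1.82%. ATP1B3 stood at 12.2 ± 1.51%, 9.29 ± 2.38% and 15.3 ± 1.06%. FXYD1 made up 34.4 ± 2.91%, 36.0 ± 5.69% and 37.9 ± 4.38% of FXYD family RNA, second to FXYD6, another pump regulator of the family, at 62.1 ± 1.84%, 62.5 ± 5.55% and 60.3 ± 4.71%. With the length of the matched RefSeq transcript in place of all exons, FXYD1 made up 41.0 ± 3.48%, 43.2 ± 6.07% and 45.0 ± 4.51%.

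**Figure D4:**
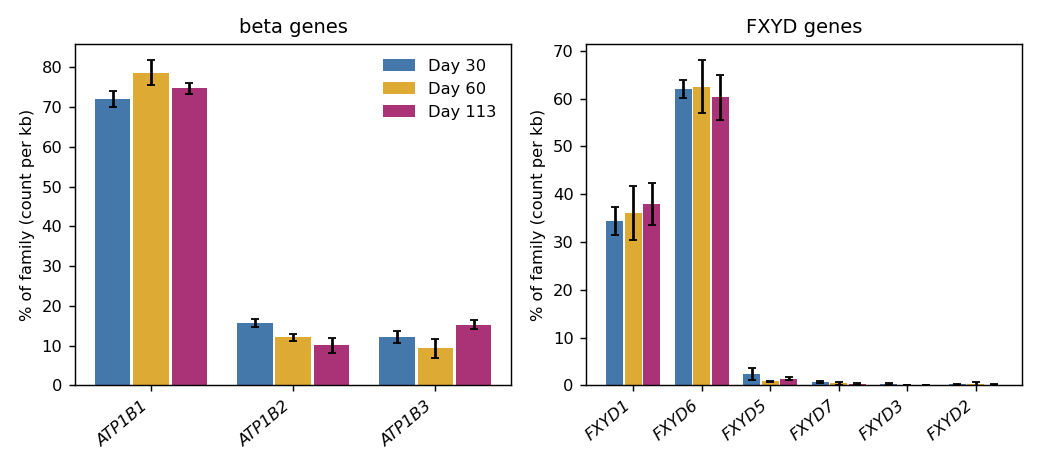
Share of each gene in its family's RNA (vertical axis, percent of the summed counts per kilobase, from 0) by day, for the beta and FXYD genes. Bars are means and error bars the SD over 4, 3 and 4 wells. ATP1B1 and FXYD6 held the largest share of their families on all 3 days.

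A list of other beta, FXYD and proton-potassium pump genes held 10 genes, of which 6 were in the count data. From Day 30 to Day 60 edgeR called 0 higher and 1 lower (FXYD5), where 4.39% of all genes were called higher and 5.91% lower. In both comparisons with Day 113 edgeR called 0, where 24.0% of all genes were called from Day 60 and 34.5% from Day 30. The list median was -0.21 from Day 60 and -0.90 from Day 30, beside 0.0016 and -0.02 over all genes. It rests largely on genes near the floor: ATP4A, FXYD2, FXYD3 and FXYD7 averaged at most 1.21 CPM on any day. At an unadjusted p under 0.05 there were 2, 1 and 3 list genes in the 3 comparisons, and DESeq2 and limma-voom each called 1, 0 and 1. FXYD5, a family member found in epithelia, averaged 10.9, 3.79 and 6.44 CPM, and its fall from Day 30 to Day 60 was 1.52 ± 0.36 in log2 (edgeR adjusted p = 0.012), a call lost without the second Day 30 well (edgeR adjusted p = 0.052) or the third Day 60 well (edgeR adjusted p = 0.067). FXYD6 averaged 321, 320.4 and 315 CPM and passed in no comparison.

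Genes of the proteins that anchor, modify or border the pump moved in both directions. Of 19 tested, 3 were called higher and 1 lower from Day 30 to Day 60, and 4 were called higher and 3 lower both from Day 60 and from Day 30 to Day 113. Over all genes, 4.39% were called higher and 5.91% lower from Day 30 to Day 60, 12.9% and 11.1% from Day 60 to Day 113, and 17.3% and 17.2% from Day 30 to Day 113. The 4 higher on Day 113 than on Day 30 were CAV3 and CAV1, the caveolins of membrane pits, with log2 changes of 3.03 and 2.01, the kinase SGK1 with 2.26, and ANK2, the ankyrin that anchors the pump in heart muscle cells, with 0.69. The 3 lower were SIK1 with -2.38, PRKCA, a kinase that phosphorylates phospholemman, with -0.44, and SRC with -0.40. The call of ANK2 from Day 60 to Day 113 was lost in 15 of 21 alternatives, with adjusted p of up to 0.13. The list median from Day 30 to Day 113 was 0.0094, beside -0.02 over all genes.

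Of 15 genes for sodium entry and sodium-coupled transport, 5 were called higher and 2 lower on Day 113 than on Day 30, where 17.3% of all genes were called higher and 17.2% lower. From Day 30 to Day 60, 3 were called higher and 2 lower, and from Day 60 to Day 113, 2 higher and 0 lower. Of all genes, 4.39% were called higher and 5.91% lower from Day 30 to Day 60, and 12.9% and 11.1% from Day 60 to Day 113. Among the genes called on Day 113 against Day 30 were SLC4A4, a sodium-bicarbonate cotransporter, with a log2 change of 0.50, and the 2 lower genes, the amino acid transporters SLC1A5 with -0.64 and SLC38A2 with -0.37. The higher calls of SLC12A2, SLC6A8 and SLC4A5 were lost in 5, 3 and 4 of the fits that left out a well, with edgeR adjusted p of up to 0.14. SLC8A1, the sodium-calcium exchanger of the heart, averaged 1057, 980.2 and 872 CPM and was not called in any comparison. Of 11 other P-type ATPases, 1 was called higher (ATP2B3, a call lost in each of 4 fits that left out a well, with edgeR adjusted p of 0.052 to 0.065) and 2 lower (ATP2B1 and ATP2B4, calcium pumps of the plasma membrane, with -0.58 and -0.46) from Day 30 to Day 113. From Day 60 to Day 113, 1 was called higher (ATP13A2) and 1 lower (ATP2B4). From Day 30 to Day 60 edgeR, DESeq2 and limma-voom each called 0 of the 11, and 2 had an unadjusted edgeR p under 0.05.

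**Figure D5:**
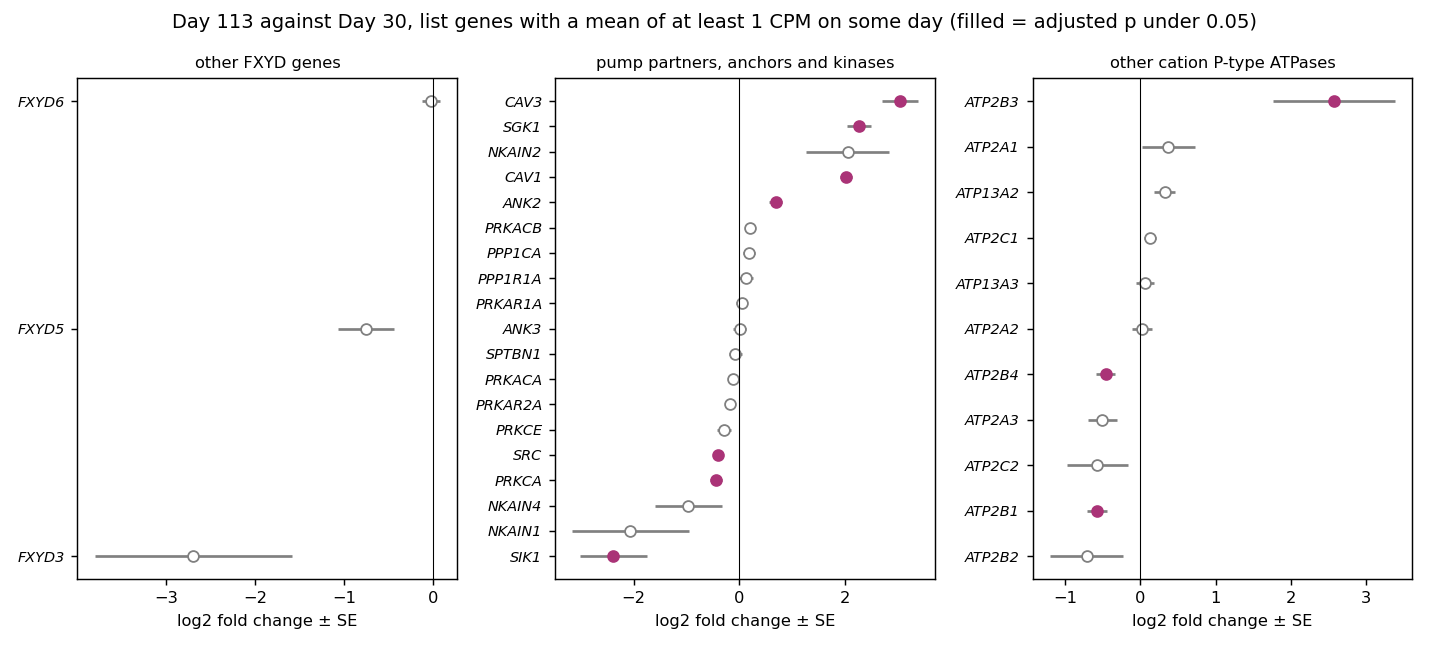
Log2 change from Day 30 to Day 113 (horizontal axis, ± SE, a scale of its own in each panel) for list genes with a mean of at least 1 CPM on some day. Filled points had an edgeR adjusted p under 0.05; they lie on both sides of 0 in the partner and P-type ATPase panels, and 0 of the FXYD genes shown are filled.

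Neighbouring genes, whose annotated left ends lie within 100 kilobases of that of each of the 4, were measured in the same wells. NME7, which overlaps the 3′ end of ATP1B1, was called higher from Day 60 to Day 113 with a log2 change of 0.50 (edgeR adjusted p = 0.042), while ATP1B1 fell. Around ATP1B2, 15 genes were in the table, of which 2 (MPDU1 and SENP3) were called higher and 1 (DNAH2) lower from Day 30 to Day 113, where 17.3% of all genes were called higher and 17.2% lower. TFDP2, the neighbour of ATP1B3, was not called in any comparison. FXYD1 lies in a cluster with FXYD3, FXYD5 and FXYD7, and of its 5 counted neighbours, 2 were called lower in each comparison: HPN and FXYD5 from Day 30 to Day 60, and HPN and LGI4 in both comparisons with Day 113. The shares of all genes called lower were 5.91% from Day 30 to Day 60, 11.1% from Day 60 to Day 113 and 17.2% from Day 30 to Day 113.

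Among 11945 genes with a mean of at least 5 CPM, those whose log2 CPM over the 11 wells was most like that of ATP1B1 were PDHX (Pearson r = 0.956), IST1 (0.952) and DUSP10 (0.948). For ATP1B2 they were SULT4A1 (0.987), MYCN (0.975) and ERBB3 (0.973). Each of these 3 was called lower on Day 113 than on Day 30, where 17.2% of all genes were called lower. As they were picked for following ATP1B2, which fell itself, those calls are no separate result. For ATP1B3 they were BAX (0.940), DUS2 (0.939) and GRB2 (0.936). For FXYD1 they were NLRC3 (0.952), MGST2 (0.923) and ZDHHC12 (0.915). These correlations are descriptions across wells that share 3 days, and the highest of so many are high by selection. Between the genes themselves, r was 0.71 for ATP1B1 with ATP1B2, -0.01 for ATP1B2 with ATP1B3 and 0.48 for ATP1B3 with FXYD1.

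Markers of several cell types moved over the same days. All counts of called markers below are for Day 113 against Day 30, where 17.3% of all genes were called higher and 17.2% lower. The summed level of 12 cardiomyocyte markers was 37123 to 49828 CPM on Day 30, 46485 to 52460 on Day 60 and 40409 to 44979 on Day 113, with 4 called higher and 2 lower on Day 113 than on Day 30. They moved both ways, with TNNI3 at 1.93 and TNNT2 at 0.66 in log2, and the most abundant of those called, the myosin gene MYH7, at -0.73. That of 8 endothelial markers was 57.4 to 85.3, 41.7 to 67.5 and 199.6 to 816 CPM, and all 8 were called higher on Day 113 than on Day 30. That of 8 fibroblast markers was 3353 to 7707, 2070 to 3570 and 5431 to 13041 CPM, with 4 called higher and 2 lower. Smooth muscle or pericyte markers (6 of 7 counted) summed to 694 to 945, 759 to 916 and 965 to 1460 CPM, with 3 called higher. Epicardial markers (6 of 6) summed to 104 to 149, 156 to 209.8 and 189 to 259 CPM, with 2 called higher and 2 lower. That of 8 epithelial or endoderm markers was 956 to 1800.1, 433 to 569 and 80.4 to 211 CPM, and 7 were called lower. Neural or glial markers, listed because ATP1B2 is also a glial gene, summed to 20.4 to 40.5, 21.7 to 40.9 and 19.9 to 57.7 CPM (8 of 10 counted), with 2 called higher and 0 lower. Immune markers (3 of 6 counted) summed to at most 4.94 CPM, with LYZ at 0 in all Day 60 wells, and the pluripotency marker in the table (1 of 5) was at 0 in all Day 113 wells. The part of these markers in the falls of ATP1B1 and ATP1B2 was not tested.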

How the data were processed

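Poly(A) RNA of 11 wells was analysed: Day 30 (4), Day 60 (3) and Day 113 (4), grouped by the labels. The authors deposited whole-number read counts for 19990 gene symbols, made with STAR 2.5.3a and featureCounts 2.0.3 on hg38, per the submitters' processing notes; strand setting and annotation are not given in the sources used here. The authors also deposited TPM values, whose implied gene lengths differed between wells (median Spearman rho -0.0017 over 55 pairs of wells, 12309 genes), so no result uses them.

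Library totals of 24.1 to 34.5 M counts (M, units of 1000000) were scaled by TMM (factors 0.966 to 1.04), and a minimum count of 10 removed 0 genes. Tests used edgeR 4.0.16 (glmQLFit, glmQLFTest) in R 4.3.3, with day as the only factor and Benjamini-Hochberg adjustment over 19990 genes per contrast. The procedure was checked on simulated data. Intervals for log2 changes are 95% and not adjusted. Ratios of counts (pseudocount 0.5) were compared by two-sided exact permutation tests. Lengths came from GENCODE release 29, and promoter sequences from RefSeq.

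The genes and lists were chosen with earlier results of these data known. Named beyond the 4 genes were list genes that were called or abundant, the 3 genes most correlated with each, and neighbours within 100 kilobases. Alternatives were RLE, upper-quartile and total-count scaling, no filter or 1 CPM in 3 libraries, DESeq2 1.42.0, limma-voom (limma 3.58.1), robust edgeR, a threshold of 0.01, a replicate block, only the wells of the compared days, and each well left out. Certain related genes are not reported here and were left out of the lists.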

Additional observations from a re-analysis of the deposited data

Results flagged for a closer look

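The change of ATP1B1 differed between the 2 intervals by a direct test: its log2 change from Day 60 to Day 113 minus that from Day 30 to Day 60 was -0.74 ± 0.20 (SE, edgeR adjusted p = 0.031). It stood higher in 2 of 3 Day 60 wells (426 and 411 CPM) than in any Day 30 well, and lower in 4 of 4 Day 113 wells than in any Day 60 well. Over 20 alternatives this difference ran from -0.98 to -0.61, with edgeR, DESeq2 or limma-voom adjusted p from 0.0038 to 0.16. For the 4 genes and their 4 ratios, no well stood apart from the others of its day in 16 checks on groups of 4 wells (Day 30 and Day 113), where chance flags about 1 in 20. Genes outside the 4 were not part of these checks, and the second Day 113 well was low in TTN (2535 against 5573 to 6744 CPM); Day 60 with 3 wells could not be checked.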

How the results depend on the processing

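Over 21 alternatives, the falls of ATP1B2 from Day 60 (log2 -0.86 to -0.64) and from Day 30 (-1.19 to -0.97) to Day 113 and that of ATP1B1 from Day 60 (-0.67 to -0.47) kept their direction and stayed under the threshold. In every count of alternatives, the setting without a filter repeats the main fit, because the main filter removed 0 genes, and could not differ from it. ATP1B2 from Day 30 to Day 60 passed with only the wells of those days (-0.31). At an adjusted p under 0.01 the genes called were 937, 2545, 4552 and 618 (Day 60 against 30, 113 against 60, 113 against 30, and the difference between intervals) in place of 2060, 4790, 6889 and 1868. Upper-quartile scaling turned the FXYD1 interval difference from 0.07 to -0.035. In the 3 pairs of days it moved the median of all genes by at most 0.064, and RLE and total-count scaling by at most 0.025. With 1 well left out at a time, the genes called ran from 1220 to 2618 from Day 30 to Day 60 (lowest without the third Day 60 well, and 1323 without the second Day 30 well and 1259 without the first Day 60 well) and from 643 to 2221 for the interval difference (643 without the first and 774 without the third Day 60 well). ATP1B1 ran from -0.40 to -0.30 from Day 30 to Day 113 and from -0.98 to -0.61 for the interval difference. FXYD1 ran from -0.081 to 0.19, from -0.10 to 0.26 and from -0.050 to 0.27 in the 3 pairs of days, and from -0.19 to 0.34 for the interval difference. The log2 ratio of ATP1B2 to ATP1B3 ran from -0.054 to 0.19 and that of FXYD1 to ATP1B1 from -0.40 to 0.063 from Day 30 to Day 60. Wells with the same replicate number deviated together weakly (r 0.023 to 0.076, median 0.045, over 10 pairs). Wells with different numbers had r of -0.078 to 0.069 (median -0.023, over 30 pairs). Whether the numbers pair the wells was not tested, and the labels give them only as well numbers. With a replicate block, 2474, 4954, 7143 and 2366 genes were called, no call of the 4 genes changed, and the ATP1B2 to ATP1B3 difference from Day 30 to Day 60 became -0.015. Of 957 values for the listed genes under alternatives, 875 kept their direction and side of the threshold, 82 were no longer past it, and 0 reversed. Depth limits the listed genes with the lowest levels, such as SIK1 (0.251 CPM on Day 113) and CAV3 (1.12 CPM on Day 30).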

Other observations

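The spread of the 4 genes between wells was not alike on each day. FXYD1 varied least on Day 30 (77.9 ± 8.00 CPM, SD, n = 4) and most on Day 113 (88.3 ± 26.9 CPM, n = 4), while ATP1B1 varied by 29.2 CPM on Day 30, 59.6 on Day 60 (n = 3) and 19.7 on Day 113. The second Day 113 well held the highest value of that day for FXYD1 (127 CPM), ATP1B1 (291), ATP1B3 (43.6) and FXYD6 (382), and not for ATP1B2 (37.5). On Day 60 the second well was the lowest of its day for ATP1B1 (316 CPM) and ATP1B2 (62.6) and the highest for ATP1B3 (33.7) and FXYD1 (95.1). These differences between single wells were not tested.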
